A study of Mus musculus with 8 samples.

Results

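The circadian clock genes examined here were Arntl, Clock, Per1, Per2, Per3, Cry1, Nr1d1, Nr1d2, Dbp and Tef, 10 genes out of 14351 measured in mouse colon. They were taken by name as core and output genes of the clock, through the RefSeq accession in each probe set name. A probe set is the group of short DNA probes that reads 1 transcript. All 10 were found, in 11 probe sets, since Tef has 2. The groups were 3 arrays titled STAT5b-/-, from adult mice deficient in the transcription factor STAT5b, 1 sample titled REF with the wild type genotype, and 3 arrays titled WT, all from colon. STAT5b-/- replicate 1 is labelled male, and all others female. No sample has a treatment in its labels. What REF stands for is not in the labels, and the allele, the strain, the age beyond adult and the hour of collection are not given in the sources used here.

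The clock is a feedback loop of transcription that runs in nearly every mammalian cell, colon epithelium included. ARNTL (BMAL1) pairs with CLOCK and activates genes that carry an E-box, among them the Per, Cry and Nr1d genes and the output factors Dbp and Tef. PER and CRY proteins then inhibit ARNTL and CLOCK, while NR1D1 and NR1D2 (REV-ERB alpha and beta) repress Arntl. As a result Arntl messenger RNA peaks in normal mouse tissue at about the time of day when Nr1d1 and Dbp messenger RNA is lowest.

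Values are given as deposited, each divided by the gene's WT mean, so ratios can be compared between samples of a gene but say nothing about the level of a gene against another. For the same reason the colon label could not be checked by the presence or absence of markers. Stat5b had ratios of 1.16, 1.17 and 1.26 in the arrays labelled STAT5b-/-, 1.18 in REF, and 1.08, 0.930 and 0.993 in WT (log2 difference 0.26 ± 0.12, SE, adjusted p = 0.175). It was thus not measured lower there, and every direction below rests on the labels. Stat5a, its close relative, had a log2 difference of -0.24 ± 0.15 (adjusted p = 0.306). Over all genes, 1910 were higher and 1209 lower in the arrays labelled STAT5b-/- than in WT (limma, adjusted p under 0.05). After quantile normalization the counts were 126 and 204. That scaling forces 1 spread on all samples, and division by the WT mean narrows the spread of WT beforehand. It therefore shrinks STAT5b-/- differences by its design, and a call lost under it decides nothing about a gene. Separate animals are not named for the replicates, and the p-values therefore cover the spread among arrays, possibly technical only. The 2 REF columns held the same values to rounding and were counted as 1 sample.

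The stretches of 250 bases before the annotated start are shown for 7 of the genes, because the loop works through short motifs there and the genes with shared motifs can be set beside their values. They come from RefSeq on build GRCm38.p6, read 5′ to 3′ on the gene's strand, with the motifs searched in capitals, AACGTG being the variant E-box read on the other strand. The motifs were the E-box CACGTG, its variant CACGTT, the D-box TTANGTAA, which DBP and TEF bind, and the ROR element, which NR1D proteins bind. Both strands were searched, and no matches in these windows overlapped. The stretches are chr11:98775378-98775627 (minus strand) for Nr1d1, chr7:45704997-45705246 (plus strand) for Dbp, chr15:81802423-81802672 (plus strand) for Tef, chr10:85185055-85185304 (minus strand) for Cry1, chr11:69098699-69098948 (plus strand) for Per1, chr4:151044666-151044915 (minus strand) for Per3 and chr7:113207215-113207464 (plus strand) for Arntl.
Nr1d1: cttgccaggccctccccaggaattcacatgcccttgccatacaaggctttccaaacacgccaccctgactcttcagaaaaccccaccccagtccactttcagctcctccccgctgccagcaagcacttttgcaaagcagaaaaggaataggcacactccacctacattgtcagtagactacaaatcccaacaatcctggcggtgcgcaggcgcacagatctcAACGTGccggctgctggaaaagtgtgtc
Dbp: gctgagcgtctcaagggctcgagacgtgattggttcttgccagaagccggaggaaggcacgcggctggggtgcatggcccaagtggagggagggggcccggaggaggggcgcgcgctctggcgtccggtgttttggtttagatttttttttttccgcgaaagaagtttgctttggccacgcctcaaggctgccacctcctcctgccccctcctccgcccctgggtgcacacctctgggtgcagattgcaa
Tef: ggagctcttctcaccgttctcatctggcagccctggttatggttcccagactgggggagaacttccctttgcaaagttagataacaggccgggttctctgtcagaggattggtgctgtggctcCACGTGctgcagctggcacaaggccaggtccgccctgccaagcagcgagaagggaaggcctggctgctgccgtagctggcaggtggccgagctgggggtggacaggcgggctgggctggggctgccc
Cry1: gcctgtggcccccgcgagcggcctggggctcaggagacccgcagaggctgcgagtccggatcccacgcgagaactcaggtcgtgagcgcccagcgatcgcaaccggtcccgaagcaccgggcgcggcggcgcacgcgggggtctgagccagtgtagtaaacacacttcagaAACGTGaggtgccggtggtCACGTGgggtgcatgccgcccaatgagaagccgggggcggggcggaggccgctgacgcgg
Per1: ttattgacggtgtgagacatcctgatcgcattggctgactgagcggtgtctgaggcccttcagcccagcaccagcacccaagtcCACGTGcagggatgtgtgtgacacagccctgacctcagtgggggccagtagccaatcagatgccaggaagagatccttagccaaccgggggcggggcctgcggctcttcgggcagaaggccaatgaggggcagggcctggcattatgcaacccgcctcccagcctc
Per3: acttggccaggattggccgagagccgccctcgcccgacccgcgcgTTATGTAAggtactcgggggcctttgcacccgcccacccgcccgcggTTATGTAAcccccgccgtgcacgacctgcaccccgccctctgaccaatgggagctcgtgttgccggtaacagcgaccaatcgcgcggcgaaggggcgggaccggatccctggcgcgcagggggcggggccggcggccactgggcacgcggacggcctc
Arntl: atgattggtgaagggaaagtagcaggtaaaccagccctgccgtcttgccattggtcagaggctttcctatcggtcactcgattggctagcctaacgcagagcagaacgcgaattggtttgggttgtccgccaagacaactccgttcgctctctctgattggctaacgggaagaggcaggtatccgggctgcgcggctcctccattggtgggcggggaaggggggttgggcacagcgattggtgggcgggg

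Positions in these windows are counted from the start, which is 0, with -1 the last base before it. Cry1 had an E-box at positions -60 to -55 and the variant at -79 to -74. Tef had an E-box at -127 to -122, and a further E-box lay at -138 to -133 before its other annotated start. In Per1 the E-box lay at -166 to -161, and in Nr1d1 the variant lay at -28 to -23. Per3 had 2 D-boxes, at -205 to -198 and -158 to -151. Dbp, Nr1d2 and Clock had none of these letters in the window. Arntl had a ROR element just after its other annotated start, at 27 to 36. Windows reaching 50 bases past the start, 14 in all, were at hand for 9 members, and Per2 had none. Some members had several windows, so the 14 are not independent. The E-box was in 4 of these 14 windows, against 7.15% of all 32851 windows. These 4 came from 3 members, since each Tef window held it. The variant was in 2 windows (4.68% of all windows), the D-box in 1 (2.32%) and the ROR element in 1 (0.435%). A match describes the letters only.

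In the arrays labelled STAT5b-/-, Nr1d1, Dbp, Tef and Cry1 rose over WT, by 1.89, 1.00, 0.63 and 0.70 on the log2 scale, and no member fell. These 4 of 10 members compare with 13.3% of all genes called higher and 8.42% called lower. The activators Arntl and Clock and the repressors Per1, Per2, Per3 and Nr1d2 did not pass the test. REF, also wild type, lay on the other side of WT for Nr1d1, Nr1d2, Dbp and Tef, with the lowest ratio of all 7 samples in each of these 4 genes. Of the calls, that of Nr1d1 held with any 1 array left out, while the other 3 did not. The count of members called was 1 without STAT5b-/- replicate 1, replicate 2 or WT replicate 1, 2 without STAT5b-/- replicate 3, 3 without WT replicate 2 and 5 without WT replicate 3, and 0 under quantile normalization.

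**Figure D1:**
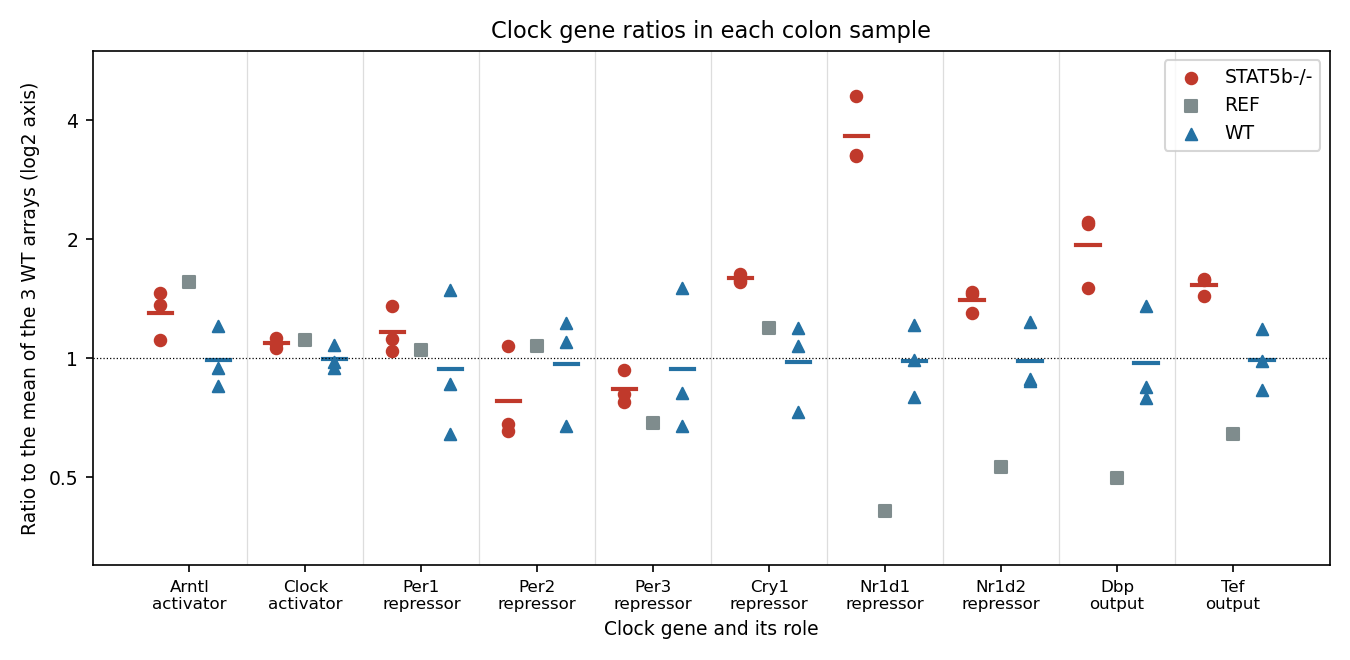
Ratio to the WT mean (log2 axis) for the 10 clock genes in each sample: STAT5b-/- (red circles, 3 arrays), REF (grey square, 1 sample) and WT (blue triangles, 3 arrays), with a bar at the mean of log2 ratios. For Nr1d1, Dbp, Tef and Nr1d2 the STAT5b-/- points lie highest and REF lowest, and Arntl is highest in REF.

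Arntl encodes the protein that pairs with CLOCK to activate genes of the loop. Its ratios were 1.11, 1.37 and 1.46 in the arrays labelled STAT5b-/-, 1.56 in REF, and 1.21, 0.944 and 0.849 in WT. REF was the highest of the 7 samples, and the STAT5b-/- and WT ranges overlapped through WT replicate 1. The log2 difference of STAT5b-/- over WT was 0.40 ± 0.18 (SE), with a 95% interval of -0.033 to 0.83 (adjusted p = 0.172), and it passed with array weights (adjusted p = 0.0421). Clock, the other partner of the activating pair, was the steadiest member. It had ratios of 1.06, 1.13 and 1.08 in the arrays labelled STAT5b-/-, 1.12 in REF, and 1.08, 0.979 and 0.943 in WT (log2 difference 0.13 ± 0.12, adjusted p = 0.506). All 7 values lay within a narrow band around 1.

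Among the repressors, Nr1d1, which encodes the nuclear receptor REV-ERB alpha, differed most. Its ratios were 3.25, 4.62 and 3.26 in the arrays labelled STAT5b-/-, 0.410 in REF, and 0.797, 0.988 and 1.21 in WT. The groups were far apart, with REF below every WT array. The log2 difference of STAT5b-/- over WT was 1.89 ± 0.21 (SE, adjusted p = 0.00184), which is 3.71-fold, and 2.23% of all genes had a larger difference in size. With each array left out it was between 1.72 and 2.04. The call ended under quantile normalization (1.11, adjusted p = 0.123), which shrinks such differences by its design on ratios to the WT mean.

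Nr1d2 encodes REV-ERB beta, the close relative of NR1D1. Its ratios were 1.46, 1.47 and 1.30 in the arrays labelled STAT5b-/-, 0.530 in REF, and 0.875, 0.888 and 1.24 in WT. The order of the groups was that of Nr1d1, over a smaller range, and STAT5b-/- and WT did not overlap. The log2 difference was 0.51 ± 0.17 (SE) and did not pass (adjusted p = 0.0760), although it did without WT replicate 3 (0.68, adjusted p = 0.0309).

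Cry1 encodes a cryptochrome, which together with PER proteins inhibits the activating pair. Its ratios were 1.56, 1.58 and 1.64 in the arrays labelled STAT5b-/-, 1.19 in REF, and 1.07, 0.733 and 1.19 in WT. The 3 STAT5b-/- values were close to each other and above all others, and REF lay within WT. The log2 difference was 0.70 ± 0.20 (SE, adjusted p = 0.0453). This call sat at the threshold: it ended without any 1 of the STAT5b-/- arrays (adjusted p = 0.119, 0.124 and 0.132 without replicates 1, 2 and 3), without WT replicate 1 (0.0704), under median centring (0.0585) and with probe sets tested one by one (0.0504).

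The Period genes, whose proteins are the other inhibitors of the activating pair, showed no called difference. Per1 had ratios of 1.12, 1.04 and 1.36 in the arrays labelled STAT5b-/-, 1.05 in REF, and 1.49, 0.863 and 0.644 in WT (log2 difference 0.31 ± 0.30, adjusted p = 0.529). Per2 had 1.07, 0.653 and 0.681 in the arrays labelled STAT5b-/-, 1.08 in REF, and 1.23, 0.673 and 1.10 in WT (log2 difference -0.31 ± 0.29, adjusted p = 0.511). Per3 had 0.776, 0.810 and 0.935 in the arrays labelled STAT5b-/-, 0.685 in REF, and 0.675, 1.51 and 0.816 in WT (log2 difference -0.17 ± 0.30, adjusted p = 0.742). In all 3 genes the groups overlapped. The WT arrays disagreed widely with each other, Per1 being highest in replicate 1 and Per3 in replicate 2. The Per3 difference took the other sign, 0.18, without WT replicate 2. For Per2 the male, STAT5b-/- replicate 1, lay near REF while the female STAT5b-/- arrays lay near the lowest WT array. REF and WT replicates 1 and 3, all female, were at least as high as the male, so sex did not sort these values.

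Dbp and Tef encode transcription factors of the PAR bZIP family, which carry the rhythm from the loop to metabolic genes. Dbp had ratios of 2.22, 2.18 and 1.51 in the arrays labelled STAT5b-/-, 0.498 in REF, and 0.847, 0.794 and 1.36 in WT. STAT5b-/- replicate 3 came close to WT replicate 3, yet the groups did not overlap, and REF was lowest. The log2 difference was 1.00 ± 0.26 (SE, adjusted p = 0.0341). It lost the call without STAT5b-/- replicate 1 (0.119) or 2 (0.118) and without WT replicate 1 (0.0895) or 2 (0.0557), and with array weights (0.0702), all adjusted p.

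Tef had ratios of 1.58, 1.59 and 1.43 in the arrays labelled STAT5b-/-, 0.645 in REF, and 0.831, 0.985 and 1.18 in WT, as the mean of its 2 probe sets. The groups did not overlap, and REF again lay below every other sample. The log2 difference was 0.63 ± 0.16 (SE, adjusted p = 0.0329), and the probe sets gave 0.62 and 0.64. The call ended without STAT5b-/- replicate 1 (adjusted p = 0.104), 2 (0.112) or 3 (0.0810) and without WT replicate 1 (0.0793).

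**Figure D2:**
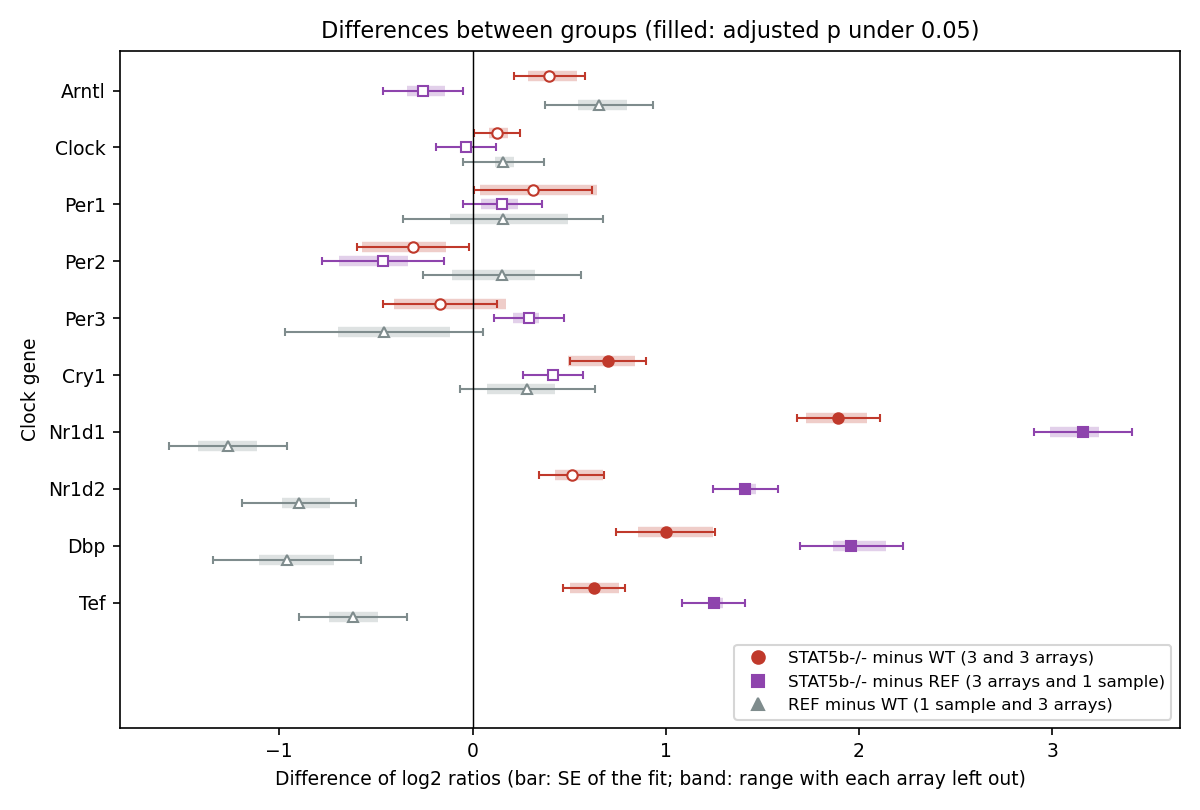
Difference of log2 ratios for each clock gene: STAT5b-/- minus WT (red circles), STAT5b-/- minus REF (purple squares) and REF minus WT (grey triangles). Bars are the SE of the fit, bands the range with each array left out, and filled symbols have an adjusted p under 0.05. Nr1d1 stands farthest from 0 in all 3 differences.

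The ranges of STAT5b-/- and WT did not overlap in 5 of the 10 members (Cry1, Nr1d1, Nr1d2, Dbp and Tef), against 41.5% of all genes, so separation of the groups was about as common here as elsewhere. REF lay below all 3 WT arrays in 4 members (28.2% of all genes) and above them in Arntl and Clock, 2 members (20.1% of all genes), shares not far from the background. In Nr1d1, Nr1d2, Dbp and Tef, REF lay below every WT array and all 3 STAT5b-/- arrays above every WT array. Such opposite placement, in either direction, was found in 4.54% of all genes.

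Against WT, REF had log2 differences of -1.27 ± 0.31 (SE) for Nr1d1, -0.90 ± 0.29 for Nr1d2, -0.96 ± 0.38 for Dbp, -0.62 ± 0.28 for Tef and 0.66 ± 0.28 for Arntl. None passed, and limma called 0 of 14351 genes in this comparison of 1 sample with 3, while 208 genes (1.45%) had an unadjusted p under 0.05. The SE here comes from the WT arrays, with REF assumed to vary like them. For Nr1d1, 0.697% of all genes had a larger difference in size.

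The arrays labelled STAT5b-/- were also set against REF in place of WT, a comparison added after REF had been seen to be lowest for these genes. REF is 1 sample, so the SE and adjusted p rest on the spread of the 3 STAT5b-/- arrays, with REF assumed to vary like them, and they are given as a description. Nr1d1 differed by 3.16 ± 0.25 on the log2 scale (SE, adjusted p = 0.00354), which is 8.93-fold. Dbp differed by 1.96 ± 0.27 (adjusted p = 0.0141), Nr1d2 by 1.41 ± 0.17 (0.00978) and Tef by 1.25 ± 0.16 (0.0131). Over all genes, 5.57% were called higher and 3.45% lower in this comparison, and nothing is read from the 4 members beside it. Cry1 differed by 0.42 ± 0.16 (adjusted p = 0.167) and Arntl by -0.26 ± 0.21 (adjusted p = 0.489), which passed under quantile normalization (-0.91, adjusted p = 0.0138). The STAT5b-/- arrays are shared with the comparison against WT, and the size of each difference depended on the wild type sample it was set against. The fold of Nr1d1 was 3.71 over WT and 8.93 over REF.

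The 4 wild type samples also differed among themselves in the members. Their log2 ratios of Nr1d1 spanned 1.57, and 4.86% of all genes spanned more. Dbp spanned 1.45 (6.32% of all genes spanned more), Nr1d2 1.22 (10.5%) and Per1 1.21 (10.8%), against a median of 0.52 over all genes. Clock, with 0.24, was the only member below that median. Much of this width came from REF. Over the 3 WT arrays alone Nr1d1 spanned 0.61 (35.2% of all genes spanned more), Dbp 0.78 (24.3%) and Nr1d2 0.50 (44.5%). Per1 spanned 1.21 there too (8.56%), and the median over all genes was 0.44. From high to low, Arntl ran REF, WT replicate 1, WT replicate 2, WT replicate 3, and Clock had the same order (2.91% of all genes did). Nr1d1, Nr1d2 and Tef ran in exactly the reverse order, as did 3.04% of all genes. Dbp differed from that order by 1 exchange, of WT replicates 1 and 2.

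**Figure D3:**
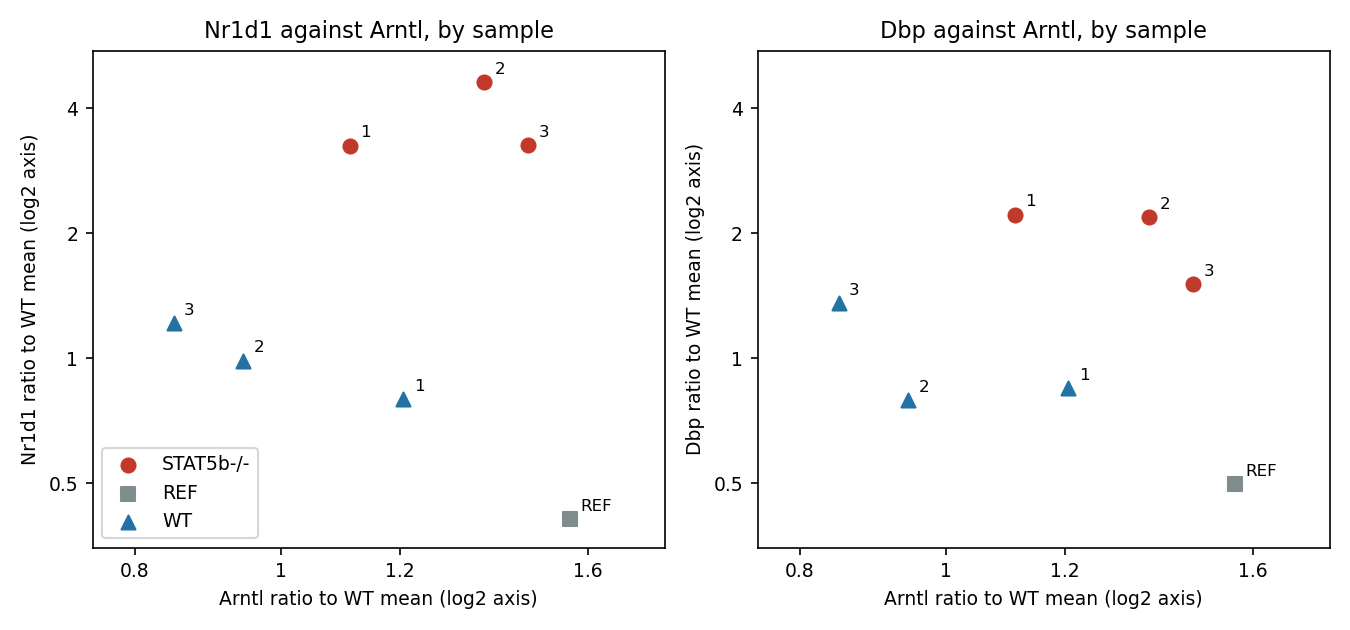
Ratios of Nr1d1 (left) and Dbp (right) against the ratio of Arntl in the same sample, all to the WT mean on log2 axes, with the replicate number beside each point. Among the wild type samples Nr1d1 is lower where Arntl is higher, with REF at 0.410 and WT replicate 3 at 1.21. The 3 STAT5b-/- points have Arntl ratios of 1.11 to 1.46 and Nr1d1 ratios of 3.25 to 4.62, above all wild type samples.

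The arrays labelled STAT5b-/- lay off the wild type pattern, with Nr1d1 much higher at nearby Arntl ratios. STAT5b-/- replicate 1 and WT replicate 1 had nearby Arntl ratios, 1.11 and 1.21, with Nr1d1 ratios of 3.25 and 0.797. STAT5b-/- replicate 3 and REF had Arntl ratios of 1.46 and 1.56, with Nr1d1 ratios of 3.26 and 0.410. In each pair Arntl was slightly lower in the STAT5b-/- array, the opposed direction, beside a much higher Nr1d1. STAT5b-/- replicate 2, with the highest Nr1d1 ratio of all, 4.62, had an Arntl ratio of 1.37. The lowest Arntl ratios were those of WT replicates 2 and 3, 0.944 and 0.849, and not those of the samples with the highest Nr1d1.

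Set as limbs, the mean log2 ratio of the activators Arntl and Clock minus that of the 6 repressors was -0.35, -0.12 and -0.10 in the arrays labelled STAT5b-/-, 0.79 in REF, and 0.21, 0.081 and -0.17 in WT. REF stood apart from all others, while STAT5b-/- and WT overlapped. The group means were -0.19 ± 0.14 in STAT5b-/- and 0.040 ± 0.19 in WT (SD, n = 3 each), a difference of -0.23 that ranged from -0.33 to -0.14 with each array left out. No test was made of this score, as its members were chosen. The repressors did not move together. Nr1d1 and Nr1d2 averaged 1.12, 1.38 and 1.04 in the arrays labelled STAT5b-/-, -1.10 in REF, and -0.26, -0.095 and 0.29 in WT. The mean of the Per genes and Cry1 lay between -0.16 and 0.14 in all 7 samples, over genes that differed in direction. In the arrays labelled STAT5b-/- it holds Cry1, which rose, at ratios of 1.56 to 1.64, beside Per3 at 0.776 to 0.935. Dbp and Tef went with the Nr1d genes, at 0.90, 0.90 and 0.56 in the arrays labelled STAT5b-/-, -0.82 in REF, and -0.25, -0.18 and 0.34 in WT.

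**Figure D4:**
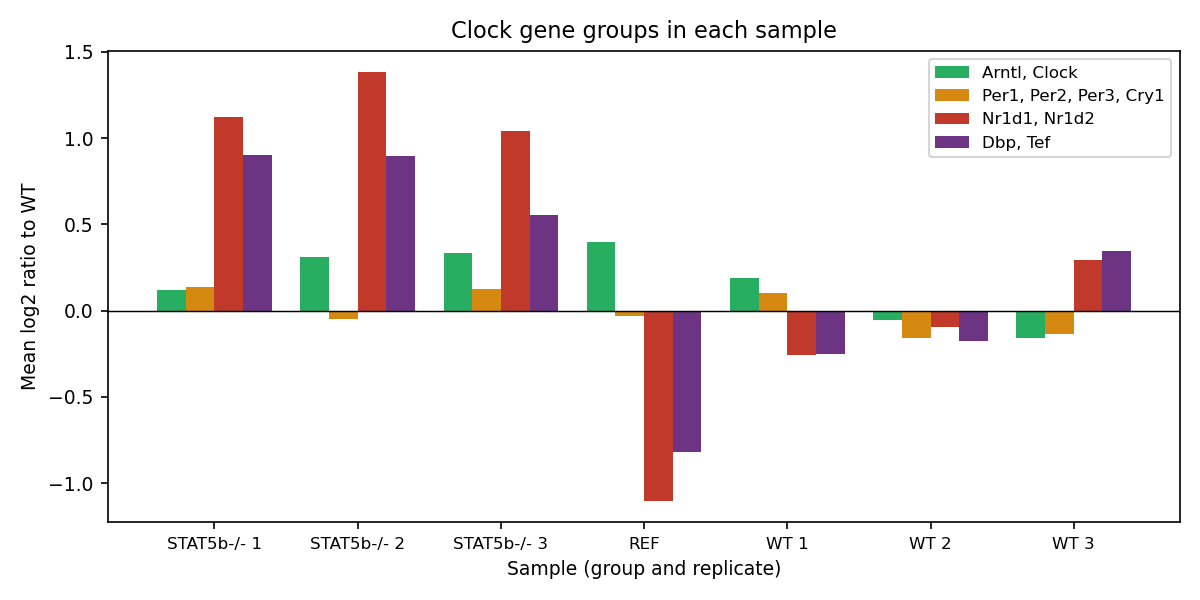
Mean log2 ratio to WT of 4 groups of clock genes in each sample, as bars from 0. The Nr1d and the Dbp and Tef bars are all positive in STAT5b-/- (0.56 to 1.38) and most negative in REF (-1.10 and -0.82), while the Per and Cry1 bars lie between -0.16 and 0.14, as means of genes that differed in direction.

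By the root mean square difference of log2 ratios over the 7 samples, the genes nearest to Nr1d1 among 14087 named genes were Opcml (0.35), Gsta3 (0.37), Ces1e (0.37), Gramd3 (0.41) and Mpp1 (0.41). Gsta3 encodes a glutathione transferase and Ces1e a carboxylesterase, both enzymes that handle foreign compounds. Dbp was the nearest member, at rank 150 (0.65). Nearest to Arntl were Endog (0.10), Exosc6 (0.13), Snrpe (0.13), Crlf2 (0.13) and Ndufs8 (0.14). They encode a mitochondrial nuclease, an exosome subunit, a spliceosome protein, a cytokine receptor and a subunit of respiratory complex I. Clock was the member nearest to Arntl, at rank 877 (0.28), and Nr1d1 was at rank 13564. The likeness is over few samples and is a description.

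Some members share their locus with another gene. Nr1d1 overlaps Thra, the gene of thyroid hormone receptor alpha, which had ratios of 1.92, 2.12 and 1.59 in the arrays labelled STAT5b-/-, 1.13 in REF, and 1.03, 0.824 and 1.15 in WT. It rose by 0.91 ± 0.18 on the log2 scale (SE, adjusted p = 0.0128), a call that ended without STAT5b-/- replicate 1 (0.0536) or 2 (0.0571). Dbp overlaps Sphk2, a sphingosine kinase gene, which rose by 0.76 ± 0.14 (adjusted p = 0.00999) and had a ratio of 0.983 in REF. Neither neighbour was low in REF as Nr1d1 and Dbp were. Per3 overlaps Uts2, with a difference of -0.070 ± 0.18 (adjusted p = 0.829). How far a probe set could read its neighbour was not tested.

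Other proteins of the loop were looked at as a list of 13, all measured. In it 2 rose and 0 fell, a share near the 13.3% of all genes called higher, and the median log2 difference was 0.070, against 0.0068 over all genes. Under quantile normalization only Por, Slc15a1 and Atp12a stayed called among 36 called genes. These are the called genes of this list and those up to the immediate early genes, with the members, Thra and Sphk2. Cell type markers are not among them. Bhlhe40, an E-box repressor, rose by 0.78 ± 0.14 on the log2 scale (adjusted p = 0.00977). Cipc, an inhibitor that binds CLOCK, rose by 1.14 ± 0.25 (adjusted p = 0.0202), a call that ended without STAT5b-/- replicate 1 (0.0813) or 2 (0.0767). Npas2, the relative of CLOCK, had a log2 difference of 0.41 ± 0.12 (adjusted p = 0.0600) and the cryptochrome Cry2 0.68 ± 0.23 (0.0768). Neither passed, though Cry2 did without WT replicate 3 (0.0419).

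Kinases, ubiquitin ligases and proteases that set the lifetime or activity of clock proteins made a list of 14. Of these, 4 rose and 0 fell, against 13.3% and 8.42% of all genes (median 0.30, and 2 to 4 risen with each array left out). Usp2, a clock-driven ubiquitin protease, had ratios of 4.04, 4.93 and 3.65 in the arrays labelled STAT5b-/-, 1.16 in REF, and 1.28, 1.00 and 0.718 in WT. It rose by 2.10 ± 0.23 (SE, adjusted p = 0.00173), and unlike Nr1d1 it was not low in REF. Prkaa1, the catalytic subunit of the energy sensor AMPK, rose by 1.53 ± 0.22 (adjusted p = 0.00432). The kinase gene Gsk3a rose by 0.58 ± 0.14 (adjusted p = 0.0252), a call that ended without any 1 STAT5b-/- array or WT replicate 1 (0.0643 to 0.0885). The kinase subunit Csnk2a1 had a difference of 0.44 ± 0.14 (adjusted p = 0.0691), the ligase subunit Btrc 0.40 ± 0.19 (0.195) and casein kinase Csnk1e 0.40 ± 0.20 (0.208).

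Of 14 clock-controlled genes that cycle in many mouse tissues, 8 rose and 2 fell, against 13.3% and 8.42% of all genes. The list median was 0.63 (5 to 7 risen with each array left out). Beside Usp2, which is in both lists, Por, the electron donor of cytochrome P450 enzymes, rose by 1.61 ± 0.15 (adjusted p = 0.000907). Alas1, the first enzyme of haem synthesis, rose by 1.36 ± 0.22 (0.00655) and the cell cycle inhibitor Cdkn1a by 1.31 ± 0.22 (0.00715). Klf10 rose by 0.79 ± 0.13 (0.00632) and Wee1, a kinase gene of mitotic entry, by 0.80 ± 0.16 (0.0137). Wee1 lost its call without STAT5b-/- replicate 1 (0.0550) or 3 (0.0587). Ppara, a receptor of fatty acid metabolism, rose by 1.13 ± 0.32 (0.0482) and Nampt, an enzyme of NAD synthesis, by 0.47 ± 0.13 (0.0482). Both calls were at the threshold: Nampt lost it without any 1 array (up to 0.159) and Ppara without any 1 except WT replicate 3 (up to 0.149). Herpud1, a protein of the endoplasmic reticulum, fell by 0.73 ± 0.12 (0.00724) and the coactivator gene Ppargc1a by 0.68 ± 0.14 (0.0143), which was 0.0631 without STAT5b-/- replicate 3. Tspan4, Klf9 and Dtx4 had differences of -0.37 ± 0.13, 0.15 ± 0.12 and -0.13 ± 0.13 and did not pass. In REF the 10 called genes had ratios between 0.839 for Wee1 and 1.40 for Alas1.

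**Figure D5:**
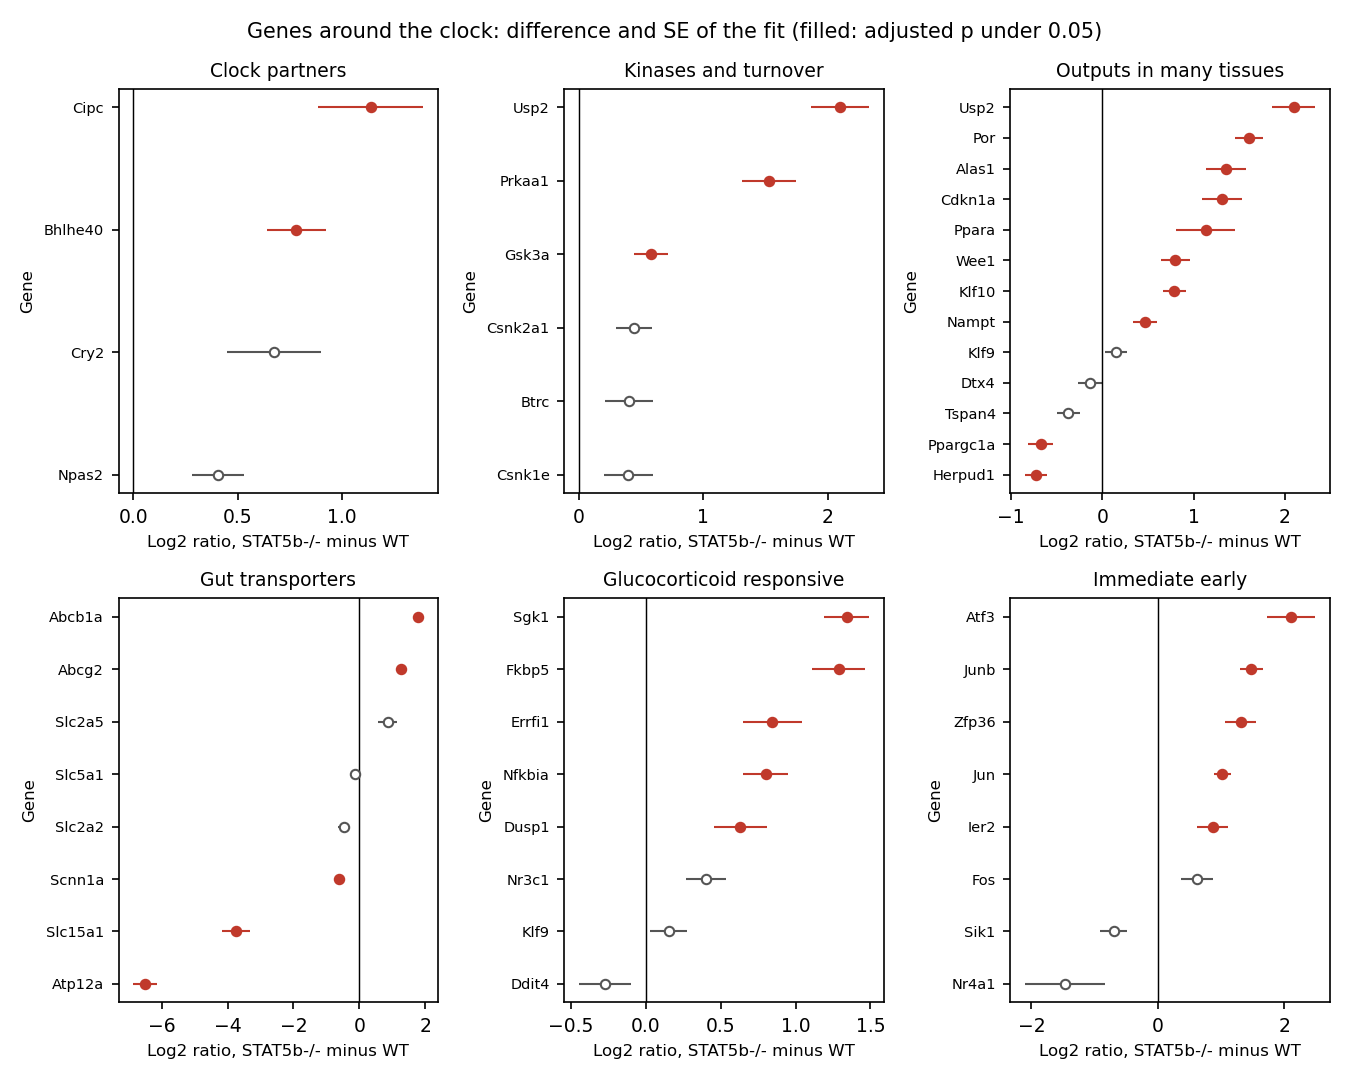
Log2 ratio of STAT5b-/- minus WT for the genes reported from 6 lists, with the SE of the fit, and filled where the adjusted p was under 0.05. Usp2, Por and Atf3 rose by 1.61 to 2.11, and in the gut transporter panel Atp12a is drawn at the lowest value the table holds, so its fall is a lower bound.

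Of 9 measured transporters picked for daily rhythm, 2 rose and 3 fell (median -0.14), against 13.3% and 8.42% of all genes. The drug exporters Abcb1a and Abcg2 rose by 1.79 ± 0.16 (adjusted p = 0.000743) and 1.28 ± 0.14 (0.00173). The peptide transporter Slc15a1 fell by 3.74 ± 0.42 (0.00176), and the proton pump subunit Atp12a was at least 91.0-fold lower, with all 3 arrays labelled STAT5b-/- at the floor. Scnn1a, a sodium channel subunit, fell by 0.61 ± 0.13 (0.0167), a call kept only without WT replicate 2 among the leave-out settings (0.0509 to 0.0690 in the other 5). Slc2a5, Slc2a2 and Slc5a1, which carry sugars, had differences of 0.86 ± 0.30, -0.47 ± 0.17 and -0.14 ± 0.13 and did not pass.

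Per1 and some clock outputs also answer to glucocorticoids and to acute stimuli, so lists of such genes were set beside them. Of 10 glucocorticoid responsive genes 5 rose and 0 fell (3 to 5 risen with each array left out), against 13.3% and 8.42% of all genes. Sgk1, a kinase of sodium transport, rose by 1.34 ± 0.15 (adjusted p = 0.00176) and Fkbp5, a chaperone of the receptor, by 1.29 ± 0.18 (0.00366). The inhibitor of NF-kB Nfkbia rose by 0.80 ± 0.15 (0.0114). Errfi1 rose by 0.85 ± 0.20 (0.0252) and the phosphatase gene Dusp1 by 0.63 ± 0.18 (0.0462). These calls ended without any 1 STAT5b-/- array or WT replicate 3, and for Dusp1 also without WT replicate 1, with adjusted p of up to 0.0943 for Errfi1 and 0.127 for Dusp1. The receptor gene Nr3c1 had a difference of 0.40 ± 0.13 (adjusted p = 0.0760), Ddit4 -0.28 ± 0.17 (0.316) and Klf9 0.15 ± 0.12 (0.447).

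Of 12 immediate early genes 5 rose and 0 fell (3 to 5 risen with each array left out), against 13.3% and 8.42% of all genes. The transcription factor genes Atf3, Junb and Jun rose by 2.11 ± 0.38 (adjusted p = 0.00974), 1.48 ± 0.18 (0.00251) and 1.02 ± 0.14 (0.00328). Zfp36, which speeds messenger RNA decay, rose by 1.31 ± 0.25 (0.0121), but not without STAT5b-/- replicate 3 (0.0507). Ier2 rose by 0.87 ± 0.25 (0.0472), and of the leave-out settings kept the call only without WT replicate 2 (0.0549 to 0.153 in the other 5). Sik1, Fos and Nr4a1 had differences of -0.70 ± 0.21, 0.63 ± 0.25 and -1.47 ± 0.63 and did not pass. Among the alternatives, Sik1 passed without WT replicate 2 (-0.47, adjusted p = 0.0423), under median centring (-0.69, 0.0454) and with array weights (-0.48, 0.0303). The part of these lists in the clock genes' differences was not tested.

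Markers of the cell types of colon wall also differed between the groups. The counts in all marker lists stand beside 13.3% of all genes called higher and 8.42% called lower. Marker calls were not looked at under quantile normalization. In bulk tissue, fewer cells of a type and less RNA per cell cannot be told apart. Surface colonocyte markers rose in 9 of 11, with array medians of log2 ratios of 0.76 to 0.92 in the arrays labelled STAT5b-/-, 0.024 in REF, and -0.019 to 0.034 in WT. Goblet cell markers fell in 5 of 7, with medians of -1.95 to -1.15 in the arrays labelled STAT5b-/-, -0.19 in REF, and -0.054 to 0.080 in WT. Fibroblast markers fell in 6 of 7 (-1.13 to -0.80 in STAT5b-/-, -0.18 in REF, -0.18 to 0.070 in WT). Macrophage markers fell in 5 of 6 (-1.33 to -0.77 in STAT5b-/-, 0.027 in REF, -0.16 to 0.24 in WT), and B and plasma cell markers in 4 of 7 (-2.54 to -1.68 in STAT5b-/-, -0.23 in REF, -0.26 to 0.054 in WT).

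Smooth muscle markers had 0 of 7 called by limma, and 0 at an unadjusted p under 0.05, with medians of -0.45 to 0.14 in the arrays labelled STAT5b-/-, -0.16 in REF, and -0.19 to 0.23 in WT. T cell markers rose in 3 of 6 and fell in 1 (0.44 to 0.49 in STAT5b-/-, -0.26 in REF, -0.099 to 0.13 in WT). Crypt stem and cycling cell markers rose in 1 of 6 and fell in 2 (-0.22 to 0.050 in STAT5b-/-, 0.34 in REF, -0.096 to 0.073 in WT). Enteric neuron and glia markers fell in 1 of 7 (-0.20 to -0.074 in STAT5b-/-, -0.072 in REF, -0.16 to 0.17 in WT), and adipocyte markers rose in 1 of 5 (-0.56 to -0.36 in STAT5b-/-, -0.39 in REF, -0.31 to 0.53 in WT). None of the markers measured was at the floor, the lowest deposited ratio. How much of the difference in Nr1d1, Dbp, Tef and Cry1 goes with these cell types was not tested.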

How the data were processed

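RNA from adult mouse colon, 100 ng per sample, was amplified and made into biotinylated cRNA by the Affymetrix protocol for arrays, per the labels' protocols. RMA, which corrects background, normalizes and summarises probes, is named without a version in the submitters' processing notes. The deposited values are linear ratios to the mean of the 3 WT arrays, which is 1 in every probe set to within 1.87e-07, and the lowest deposited ratio is 0.01. Detection calls and intensities were not used here, so dim probe sets could not be left out, and the number of arrays limits the precision.

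Of 26180 probe sets, 15228 matched 1 symbol and 10952 none in the RefSeq table of GRCm38.p6, giving 14351 genes. The log2 of each ratio was taken without a pseudocount, and probe sets of a gene were averaged. Groups were compared with limma 3.58.1 (lmFit, eBayes) in R 4.3.3, p-values adjusted by Benjamini-Hochberg over the 14351 genes, and a threshold of 0.05. Comparisons were STAT5b-/- with WT, REF with WT and, added later, STAT5b-/- with REF. Scripts were tested on simulated data.

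The members and lists were chosen with earlier results of these data known. Named were all members, every called gene of the wider lists with the 3 uncalled genes of smallest p in each, and the 5 genes nearest to Nr1d1 and to Arntl. Of the wider lists, 2 genes that this rule picks stand in the counts and are not reported here. Stat5b and Stat5a check the labels. Exceptions are Thra, Sphk2 and Uts2, chosen for their position. Alternatives were 2 other scalings, 2 treatments of probe sets, a replicate block, REF as a wild type sample, array weights, leaving out genes at the floor and leaving out each array.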

Additional observations from a re-analysis of the deposited data

How the results depend on the processing

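STAT5b-/- against WT called 3119 genes and 4 clock members. Quantile normalization gave 330 genes and 0 members, with 38.2% of the genes higher in place of 61.2%. It forces 1 spread on all samples, while the SD of log2 ratios over genes was 0.69 to 0.78 in STAT5b-/-, 0.39 in REF and 0.28 to 0.35 in WT. WT is narrow in part by construction, since the values are divided by its mean. On such ratios the setting itself shrinks STAT5b-/- differences, so the calls lost cannot tell which differences are sound. Of the 36 called genes counted above, which hold no cell type markers, 3 stayed called under quantile normalization. Testing all probe sets one by one gave 5099 calls among more features. Replicate numbers were not taken as pairs, since same-numbered STAT5b-/- and WT arrays correlated at 0.036, -0.098 and -0.19 in their deviations over genes and none correlated best with its own number. The replicate block gave 2039 genes and 1 member, Nr1d1, with Dbp at an adjusted p of 0.0927, Tef at 0.0866 and Cry1 at 0.0725. Leaving out 1 array gave 1716 to 3551 genes and 1 to 5 members, from fewer samples.

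Nr1d1 kept its call in 13 of 14 alternatives, Tef in 8, Dbp in 7 and Cry1 in 6. Per3 turned to 0.091 with array weights and ran between -0.41 and 0.18 with 1 array left out, positive without WT replicate 2. Uts2 turned to 0.0048 with REF as a wild type sample and ran between -0.25 and 0.086, positive without WT replicate 2. For REF over WT, Per2 ran between -0.11 (without WT replicate 2) and 0.32, and Per1 between -0.11 (without WT replicate 3) and 0.49. For STAT5b-/- over REF, quantile normalization turned Per1 to -0.0029 and gave 2528 genes in place of 1295. The causes were not tested. The activator minus repressor difference kept its sign in all 9 alternatives, and REF against WT called 0 genes in all 6.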
